A study of Mus musculus with 12 samples.

Results

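The genes described here are 36 named genes of the G2 phase and mitosis, from cyclin B and its kinase to the proteins that divide the cell. Each gene was represented by its brightest probe on Illumina BeadChip arrays of cultured mouse hepatic stellate cells, the liver pericytes that turn into matrix-producing myofibroblasts after injury. A probe carried the symbol of 35 of the 36 genes in the annotation, and none carried that of Ccnb1, the gene of cyclin B1. Of these 35, 28 were above background on at least 3 of the 12 arrays and entered the tests, among 13317 of 19057 genes in all, and 23 were above background on all 12 arrays.

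The arrays form 4 groups of 3. The knockout cells came from Pdgfrb fl/fl mice that carried a Cre transgene under the GFAP promoter, and the wild-type cells from Pdgfrb fl/fl mice without it, so both genotypes held the floxed gene, which codes for a receptor of platelet-derived growth factor. The floxed allele was kept on a 129S4/SvJae background and the Cre line was FVB. Cells of each genotype, grown with 10% fetal bovine serum, were given PDGF-B at 10 ng/ml in serum-free medium with albumin, or that medium without the ligand. The 4 groups are thus knockout with PDGF-B, knockout without, wild type with PDGF-B and wild type without. Deletion depends on GFAP promoter activity, so other cells in the cultures would keep the receptor gene. Each title held a code shared by 1 array with and 1 without PDGF-B, which is called a preparation here: P338, P522 and P524 for knockout, and P11, P393 and P530 for wild type. What a code stands for, whether an animal, pooled animals or a dish, is not in the labels. The p-values therefore rest on the variation among these arrays, which may be partly technical.

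A dividing cell turns on a shared programme of genes late in its cycle. Cyclin B with CDK1, aided by the Polo-like and Aurora kinases, drives entry into mitosis, kinesins and their partners build the spindle, a checkpoint holds the anaphase-promoting complex until every chromosome is attached, and a contractile ring then separates the daughter cells. Transcription of these genes is held down in resting cells by the DREAM complex, which binds a promoter element called the CHR, and is raised in G2 by the MuvB complex with B-MYB and FOXM1 and by NF-Y at CCAAT boxes. Stellate cells in the healthy liver seldom divide, while cultured and activated ones do, and PDGF-B is known as a mitogen for them.

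The promoters of 6 members are shown first. Plk1 and Kif23 are included because the probe that stood for each of them here did not follow the order of most members across preparations. Sequences are from RefSeq with build GRCm38.p6 and run 5′ to 3′ from 250 bases before to 50 bases after the gene's start. Capitals mark the CHR, searched as TTTGAA or TTCAAA, and the CCAAT box, searched as CCAAT or ATTGG, so both strands are covered.
Cdk1, chr10:69352863-69353162, minus strand: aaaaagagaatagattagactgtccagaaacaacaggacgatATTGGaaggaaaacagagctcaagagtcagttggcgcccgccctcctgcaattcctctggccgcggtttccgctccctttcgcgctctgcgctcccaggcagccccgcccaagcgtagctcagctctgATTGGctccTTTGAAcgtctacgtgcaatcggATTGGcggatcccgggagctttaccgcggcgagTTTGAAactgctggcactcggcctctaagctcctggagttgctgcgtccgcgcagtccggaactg
Cenpa, chr5:30666636-30666935, plus strand: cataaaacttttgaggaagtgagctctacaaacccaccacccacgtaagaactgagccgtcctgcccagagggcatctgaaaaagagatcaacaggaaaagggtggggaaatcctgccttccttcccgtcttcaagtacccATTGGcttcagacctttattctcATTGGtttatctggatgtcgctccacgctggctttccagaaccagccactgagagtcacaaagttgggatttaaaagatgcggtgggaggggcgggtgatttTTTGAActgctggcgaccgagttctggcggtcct
Bub1b, chr2:118597961-118598260, plus strand: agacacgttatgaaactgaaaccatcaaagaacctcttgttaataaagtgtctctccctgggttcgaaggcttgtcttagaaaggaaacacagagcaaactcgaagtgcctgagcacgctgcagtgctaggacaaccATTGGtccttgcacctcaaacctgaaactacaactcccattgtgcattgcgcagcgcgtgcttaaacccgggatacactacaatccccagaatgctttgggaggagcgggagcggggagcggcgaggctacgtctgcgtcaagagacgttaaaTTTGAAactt
Top2a, chr11:99024140-99024439, minus strand: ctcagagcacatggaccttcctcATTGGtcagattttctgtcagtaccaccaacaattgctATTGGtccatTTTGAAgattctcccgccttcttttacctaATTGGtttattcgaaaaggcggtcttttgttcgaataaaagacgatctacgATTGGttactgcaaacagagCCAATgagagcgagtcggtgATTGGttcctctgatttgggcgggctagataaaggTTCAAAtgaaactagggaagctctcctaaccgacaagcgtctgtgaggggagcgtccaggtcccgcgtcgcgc
Plk1, chr7:122159185-122159484, plus strand: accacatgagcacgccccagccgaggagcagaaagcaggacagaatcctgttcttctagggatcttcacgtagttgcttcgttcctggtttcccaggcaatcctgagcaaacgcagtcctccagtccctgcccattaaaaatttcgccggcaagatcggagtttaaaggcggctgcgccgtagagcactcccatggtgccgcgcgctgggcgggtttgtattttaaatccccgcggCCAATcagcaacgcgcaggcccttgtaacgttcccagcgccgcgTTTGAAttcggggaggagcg
Kif23, chr9:61946750-61947049, minus strand: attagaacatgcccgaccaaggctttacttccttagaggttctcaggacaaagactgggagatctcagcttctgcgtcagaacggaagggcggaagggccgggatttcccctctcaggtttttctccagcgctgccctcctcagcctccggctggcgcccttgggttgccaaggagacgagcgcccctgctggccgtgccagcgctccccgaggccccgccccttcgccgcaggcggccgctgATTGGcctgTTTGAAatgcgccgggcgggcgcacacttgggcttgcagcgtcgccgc
RefSeq promoters were matched for 32 of the 36 members. A CHR lay in the promoter of 24 of the 32 members (75%), against 20.2% of 27025 genes with a promoter in the same table. A CCAAT box lay in 25 of the 32 (78.1%), against 41.1% of all genes, and at least 2 boxes in 18 (56.2%), against 13.3%. Both elements were present in 21 members (65.6%), against 7.97% of all genes, and neither in Birc5, Mad2l1, Melk and Nusap1. Cdk1 had a CHR 15 bases and another 71 bases before the start, with CCAAT boxes 48, 80 and 208 bases before it. Plk1 and Kif23 held both elements too. These matches describe the letters in the window and are not evidence of binding. Whether they bear on the levels of the members was not tested.

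Median raw intensities of the arrays ran from 86.2 to 96.2, and background was exceeded by 44.2% to 53.5% of the 45281 probes. Markers of several cell types were present. Above background on all arrays were 6 of 13 stellate markers with a probe, 10 of 12 myofibroblast, 13 of 15 macrophage, 7 of 8 mesothelial, 2 of 9 endothelial, 2 of 4 cholangiocyte, 1 of 9 hepatocyte and 0 of 6 lymphocyte markers. Of the stellate markers Lrat, Gfap, Rgs5 and Lhx2 were below the filter. Dividing cells of any type in a culture can carry the G2/M messages, and in such bulk RNA fewer dividing cells and less RNA per dividing cell cannot be told apart. Pdgfrb had log2 intensities of 6.42 to 7.74 in knockout and 6.68 to 7.80 in wild-type arrays, and where its probe lies relative to the deleted part is not known here, so it does not check the labels.

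The G2/M and mitosis genes differed mainly between preparations of the same genotype. Values are log2 intensities after background correction and quantile normalization, and their precision is limited by how many arrays there are. A moderated F test in limma asked whether the 3 preparations of a genotype differed, using the spread between the arrays of 1 preparation after removing the ligand difference of each genotype. It called 24 of the 28 measured members at a Benjamini-Hochberg adjusted p under 0.05, beside 45.6% of all 13317 genes. Such calls were not particular to the members. Among measured cell type markers the test called 8 of 9 stellate, 10 of 12 myofibroblast, 12 of 14 macrophage and 8 of 8 mesothelial genes. Of the remaining lists it called 2 of 2 cholangiocyte, 5 of 9 endothelial, 2 of 3 hepatocyte and 1 of 3 lymphocyte genes. The members were spread over a wider range than most genes. The median distance from the highest to the lowest preparation was 0.93 on the log2 scale for the members, against 0.33 for all genes. Among called members the range went from 0.35 (Melk, 1.27-fold) to 1.41 (Cenpa, 2.66-fold). Differences between preparations of one genotype made up a median of 76.1% of a member's variance, genotype 11.8% and ligand 1.27%, against 64.6%, 5.17% and 5.75% for all genes. These are shares of sums of squares, from which nothing expected by chance was removed.

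The same 3 preparations stood highest for most of the genes. P338 and P524, both knockout, and P393, wild type, were the 3 highest of the 6 preparations for 24 of the 28 members and for 22 of the 24 called, while P522, P11 and P530 were the lowest. The same 3 preparations were highest for 8.38% of all genes, a share given as description, since these preparations were noticed in the members' own values. The F test compared preparations within a genotype, and no test set these 3 preparations against the others. P530 was lowest for 15 members, P522 for 5 and P11 for 5. The 4 members that did not have this order were Plk1, Kif23, Ttk and Cenpf.

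**Figure D1:**
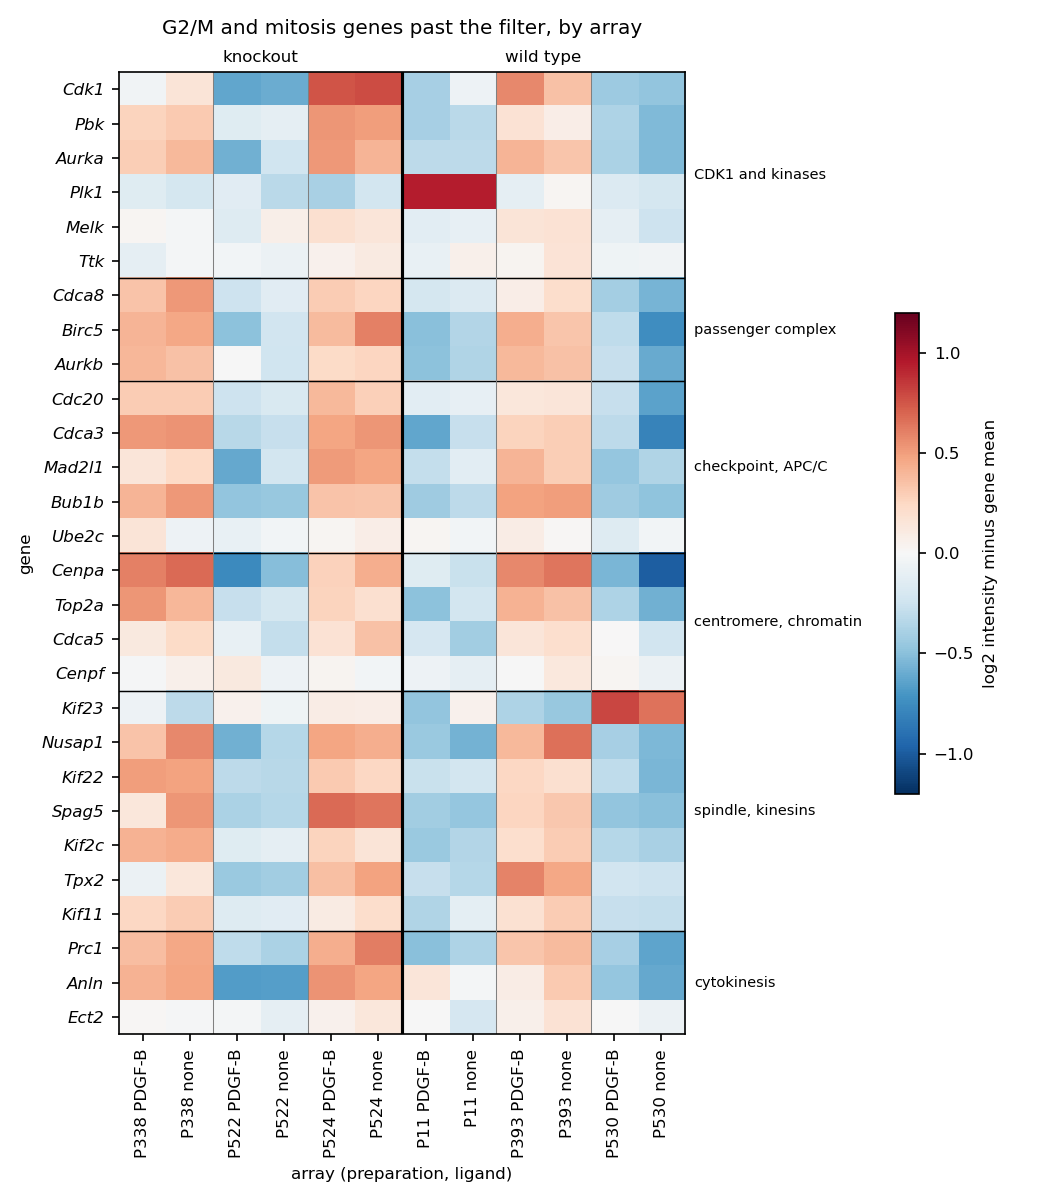
Heat map of the 28 measured members (rows, grouped by role) on the 12 arrays (columns), coloured by log2 intensity minus the gene's mean over the arrays. Arrays of P338, P524 and P393 are red for most genes and those of P522, P11 and P530 blue, with Plk1 red in P11 and Kif23 red in P530.

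Cdk1 and the kinases of mitotic entry come first. Cdk1, the kinase that cyclin B activates, measured 7.99 with and 8.18 without PDGF-B in P338, 7.41 and 7.43 in P522 and 8.79 and 8.81 in P524, the knockout preparations, against 7.64 and 7.97 in P11, 8.61 and 8.38 in P393 and 7.59 and 7.55 in P530, the wild-type preparations. Both arrays of P524, P393 and P338 exceeded both arrays of P522, P530 and P11, and the genotypes overlapped. Its levels differed between preparations of one genotype (adjusted p = 1.85e-05), with P524 2.6-fold above P522 (log2 difference 1.38 ± 0.12 SE, adjusted p = 6.49e-06). P524 also exceeded P338 for Cdk1, the difference of P338 minus P524 being -0.71 ± 0.12 SE (adjusted p = 0.00125), while for 25 of the 28 members no difference between these preparations was called. Pbk, a mitotic kinase of the MAPKK family, measured 8.05 and 8.10 in P338, 7.64 and 7.68 in P522 and 8.32 and 8.29 in P524 among knockout preparations, against 7.39 and 7.47 in P11, 7.96 and 7.87 in P393 and 7.42 and 7.26 in P530 among wild-type ones. It had the largest genotype share of variance among the members, 42.3%, with 8.01 ± 0.33 in the knockout preparations against 7.56 ± 0.31 in the wild-type ones (SD, n = 3 each). Aurka, the Aurora kinase of centrosomes and spindle poles, ranged over preparations by 0.92 on the log2 scale (adjusted p = 4.76e-05). Melk, a kinase of dividing and stem cells, was above background on 8 of 12 arrays and had the smallest range of the called members (adjusted p = 0.0286).

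Plk1, the Polo-like kinase of mitotic entry and spindle assembly, followed another order. It measured 6.22 and 6.16 in P338, 6.23 and 6.04 in P522 and 5.99 and 6.15 in P524 among knockout preparations, against 7.31 and 7.31 in P11, 6.27 and 6.39 in P393 and 6.20 and 6.16 in P530 among wild-type ones. Both arrays of P11 stood at 7.31 and the other 10 arrays lay between 5.99 and 6.39. These lower values were near those of Ube2c, 5.83 to 6.13, a gene above background on only 9 arrays. The Plk1 probe was above background on all 12 arrays but dim, with a mean raw intensity of 115.6. The difference of P11 minus P530 was 1.13 ± 0.09 SE (adjusted p = 2.94e-05) and that of P393 minus P11 was -0.98 ± 0.09 SE (adjusted p = 0.000188). P11 was among the 3 lowest preparations for most other members. The Plk1 call (adjusted p = 3.35e-05) rested on this preparation, since without P11 the adjusted p was 0.381. Plk1 had 1 probe, so no second probe could be set beside it. Ttk, the checkpoint kinase MPS1, was above background on 5 arrays and was not called (adjusted p = 0.234). Ccnb2, cyclin B2, and Nek2, a centrosome kinase, were above background on 0 arrays.

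**Figure D2:**
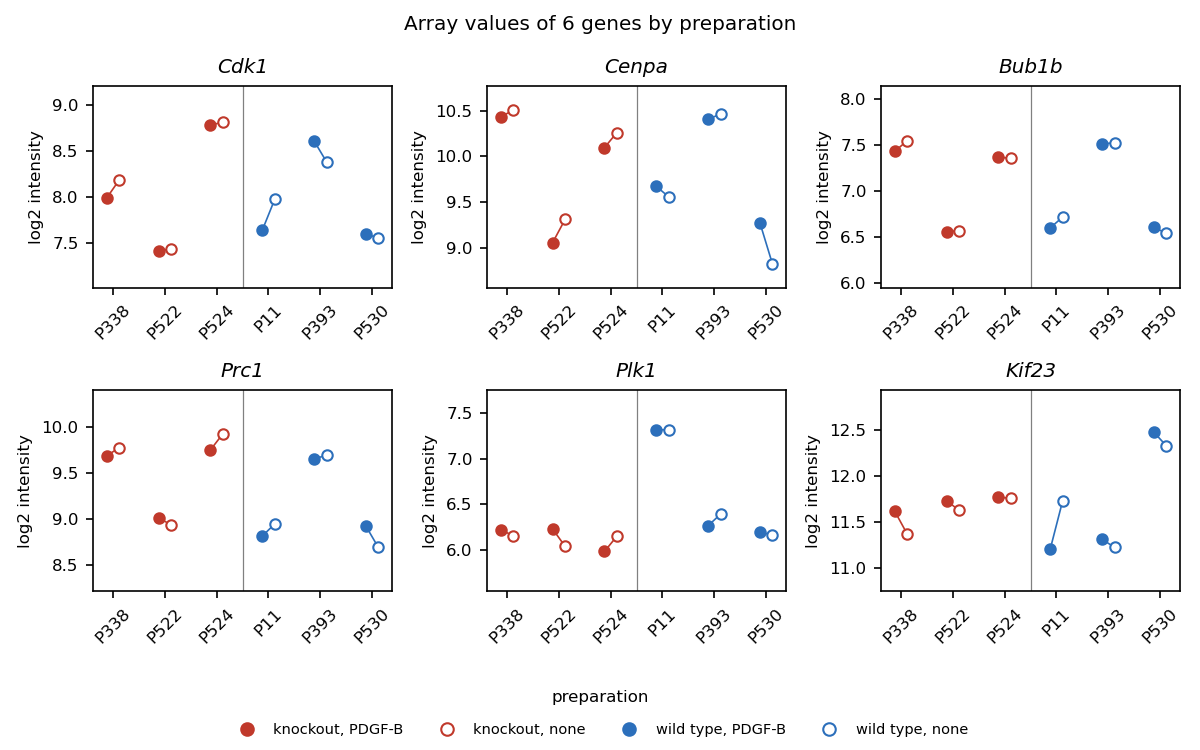
Log2 intensity (vertical axis, windows of equal height) of Cdk1, Cenpa, Bub1b, Prc1, Plk1 and Kif23 in the 6 preparations, with filled points for PDGF-B, open points for none and a line joining the arrays of 1 preparation. The first 4 genes are high in P338, P524 and P393, Plk1 is high in P11 alone at 7.31, and Kif23, by its brightest probe, is highest in P530.

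All 3 measured members of the chromosomal passenger complex, which corrects faulty attachments and guides cytokinesis, were called, and each was highest in P338, P524 and P393, beside 45.6% of all genes called and 8.38% with that order. They belong to the members in whose values the order was noticed, so they are not a separate check of it. Birc5, the survivin subunit, measured 8.56 and 8.62 in P338, 7.66 and 7.93 in P522 and 8.54 and 8.76 in P524 among knockout preparations, against 7.65 and 7.81 in P11, 8.59 and 8.49 in P393 and 7.85 and 7.41 in P530 among wild-type ones. The 6 arrays of P338, P524 and P393 lay between 8.49 and 8.76 and the other 6 between 7.41 and 7.93, without overlap. For Birc5 the F test between preparations of one genotype gave adjusted p = 9.8e-05. Cdca8, the borealin subunit, measured 8.92 and 9.09 in P338, 8.32 and 8.43 in P522 and 8.88 and 8.83 in P524 among knockout preparations, against 8.36 and 8.41 in P11, 8.65 and 8.78 in P393 and 8.16 and 8.02 in P530 among wild-type ones. It was highest in P338 and lowest in P530, 1.89-fold apart (adjusted p = 0.00024). Aurkb, the kinase of the complex, measured 7.74 and 7.70 in P338, 7.34 and 7.10 in P522 and 7.57 and 7.60 in P524 among knockout preparations, against 6.85 and 6.98 in P11, 7.73 and 7.70 in P393 and 7.06 and 6.74 in P530 among wild-type ones. P338 minus P522 was 0.50 ± 0.11 SE and P393 minus P530 was 0.81 ± 0.11 SE for Aurkb (adjusted p = 0.00892 and 0.000693).

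Of the genes of the spindle checkpoint and of the anaphase-promoting complex that it restrains, 4 of 5 measured members were called, beside the 45.6% of all genes. Bub1b, the checkpoint protein BUBR1, had the smallest adjusted p of all members (3.34e-06). It measured 7.43 and 7.55 in P338, 6.55 and 6.57 in P522 and 7.37 and 7.36 in P524 among knockout preparations, against 6.60 and 6.71 in P11, 7.51 and 7.52 in P393 and 6.60 and 6.54 in P530 among wild-type ones. Arrays fell into a band of 7.36 to 7.55 in P338, P524 and P393 and a band of 6.54 to 6.71 in the other preparations, and the arrays with and without PDGF-B differed by at most 0.12 within a preparation. Mad2l1, the checkpoint protein MAD2, measured 8.21 and 8.31 in P338, 7.45 and 7.85 in P522 and 8.58 and 8.54 in P524 among knockout preparations, against 7.78 and 7.94 in P11, 8.47 and 8.36 in P393 and 7.60 and 7.70 in P530 among wild-type ones. The array with PDGF-B lay 0.39 below the one without in P522, a wider gap than in the other preparations, and the test between preparations gave adjusted p = 0.000102. Cdca3, which promotes mitotic entry through degradation of WEE1, measured 8.92 and 8.94 in P338, 8.06 and 8.12 in P522 and 8.87 and 8.93 in P524 among knockout preparations, against 7.77 and 8.13 in P11, 8.67 and 8.69 in P393 and 8.08 and 7.60 in P530 among wild-type ones (adjusted p = 0.000533). Here too the 6 arrays of P338, P524 and P393, from 8.67 to 8.94, lay above all the others. Cdc20, an activator of the anaphase-promoting complex, ranged from 7.97 in P530 to 8.77 in P524 as preparation means (adjusted p = 0.00073). Ube2c, the ubiquitin-conjugating enzyme of that complex, was above background on 9 arrays and was not called (adjusted p = 0.542). Bub1, a checkpoint kinase, was above background on 1 array and lay between 5.79 and 5.96 on all 12.

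Among centromere and chromosome genes, Cenpa, the histone H3 variant that marks centromeres, had the widest range of all called members. It measured 10.43 and 10.50 in P338, 9.06 and 9.31 in P522 and 10.10 and 10.26 in P524 among knockout preparations, against 9.67 and 9.56 in P11, 10.40 and 10.46 in P393 and 9.28 and 8.83 in P530 among wild-type ones. P338 exceeded P522 by 1.28 ± 0.11 SE and P393 exceeded P530 by 1.38 ± 0.11 SE (adjusted p = 1.86e-05 and 2.96e-05). P11 lay between, above P530 by 0.56 ± 0.11 SE (adjusted p = 0.00652). Top2a, the topoisomerase that untangles sister chromatids, measured 8.38 and 8.24 in P338, 7.57 and 7.64 in P522 and 8.11 and 8.04 in P524 among knockout preparations, against 7.35 and 7.62 in P11, 8.26 and 8.19 in P393 and 7.47 and 7.27 in P530 among wild-type ones. Its 6 arrays in P338, P524 and P393, at 8.04 to 8.38, did not overlap the other 6, at 7.27 to 7.64. The F test between preparations of one genotype gave adjusted p = 0.00014 for Top2a. Cdca5, the cohesion protein sororin, had a smaller range of 0.57 (adjusted p = 0.00508). Cenpf, a kinetochore protein, was above background on 6 arrays and was not called (adjusted p = 0.707). Cenpe, the kinetochore kinesin, was above background on 2 arrays.

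All 7 measured genes of the spindle and its motors were called, 6 of them highest in P338, P524 and P393, beside 45.6% and 8.38% of all genes. These 6 are part of the count of members above, in whose values that order was noticed, and not a separate check of it. The seventh, Kif23, was called in another order and on a probe of uncertain identity. Tpx2, the spindle assembly factor that activates Aurora A, measured 6.98 and 7.18 in P338, 6.59 and 6.63 in P522 and 7.41 and 7.53 in P524 among knockout preparations, against 6.77 and 6.70 in P11, 7.63 and 7.51 in P393 and 6.81 and 6.79 in P530 among wild-type ones. P393 and P524 were the highest and the arrays of the genotypes overlapped. Tpx2 had adjusted p = 6.86e-06 in the F test between preparations of one genotype. P338 lay below P524 for Tpx2, with a difference of -0.39 ± 0.08 SE (adjusted p = 0.00361). Nusap1, a protein that bundles spindle microtubules, measured 8.62 and 8.85 in P338, 7.69 and 7.93 in P522 and 8.74 and 8.71 in P524 among knockout preparations, against 7.83 and 7.71 in P11, 8.66 and 8.94 in P393 and 7.88 and 7.74 in P530 among wild-type ones. P393 was 2.04-fold above P11 for this gene (log2 difference 1.03 ± 0.11 SE, adjusted p = 0.000426). Spag5, the spindle protein astrin, had a range of 1.15 over preparations (adjusted p = 3.05e-05). Kif2c, which takes microtubules apart at kinetochores, had a range of 0.83, and Kif22, a motor that moves chromosome arms, one of 0.92. Kif11, the motor that pushes spindle poles apart, had a range of 0.56 (adjusted p = 0.000513). Kif20a, a kinesin of the central spindle, was above background on 2 arrays and lay between 5.73 and 6.04. Hmmr, a spindle protein that also binds hyaluronan, was above background on 1 array.

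Kif23, the kinesin of the centralspindlin complex, gave different answers by probe. By its brightest probe, ILMN_1250752, it measured 11.62 and 11.37 in P338, 11.73 and 11.63 in P522 and 11.77 and 11.76 in P524 among knockout preparations, against 11.21 and 11.73 in P11, 11.31 and 11.23 in P393 and 12.48 and 12.33 in P530 among wild-type ones. On this probe P530 was the highest preparation, 1.14 above P393 on the log2 scale, and the call was at adjusted p = 0.000564. Probe ILMN_1220121 measured 8.07 and 8.16 in P338, 7.99 and 7.87 in P522 and 7.86 and 7.87 in P524 among knockout preparations, against 7.42 and 7.35 in P11, 8.41 and 8.48 in P393 and 7.59 and 7.40 in P530 among wild-type ones. Probe ILMN_2923463 measured 7.03 and 7.27 in P338, 6.69 and 6.63 in P522 and 7.04 and 7.16 in P524 among knockout preparations, against 6.57 and 6.67 in P11, 7.32 and 7.27 in P393 and 6.53 and 6.47 in P530 among wild-type ones. On both of these P393 was the highest preparation and P530 and P11 were the lowest, the opposite of the brightest probe for P393 and P530. The annotation ties both to the Kif23 mRNA of RefSeq, and the brightest probe to a separate cDNA entry, so whether the brightest probe measures the Kif23 message is not known here. Between preparations the adjusted p over all probes was 0.000653 for the brightest probe, 2.54e-05 for ILMN_1220121 and 8.89e-05 for ILMN_2923463. The choice of probe therefore decided the direction for Kif23. In all, 20 other probes of 14 members were past the filter, of which 12 were called and 8 were not, beside 38% of the 26302 probes past the filter. The 8 not called were probes of Anln, Cdk1, Cenpa, Cenpf, Melk and Nusap1, and each was at background on at least 1 array. The highest preparations were P338, P524 and P393 for 14 of the 20, beside 8.38% of all genes, a share over genes and not over probes. Of the 20, 11 were above background on all arrays and all 11 were called, beside 54.9% of the 16467 probes above background on all arrays. P338, P524 and P393 were the highest for 9 of these 11, the exceptions being a Cdc20 probe and ILMN_1220121. The 20 probes belong to members and were read on the arrays in which the order was noticed. They are not a separate check of it.

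**Figure D3:**
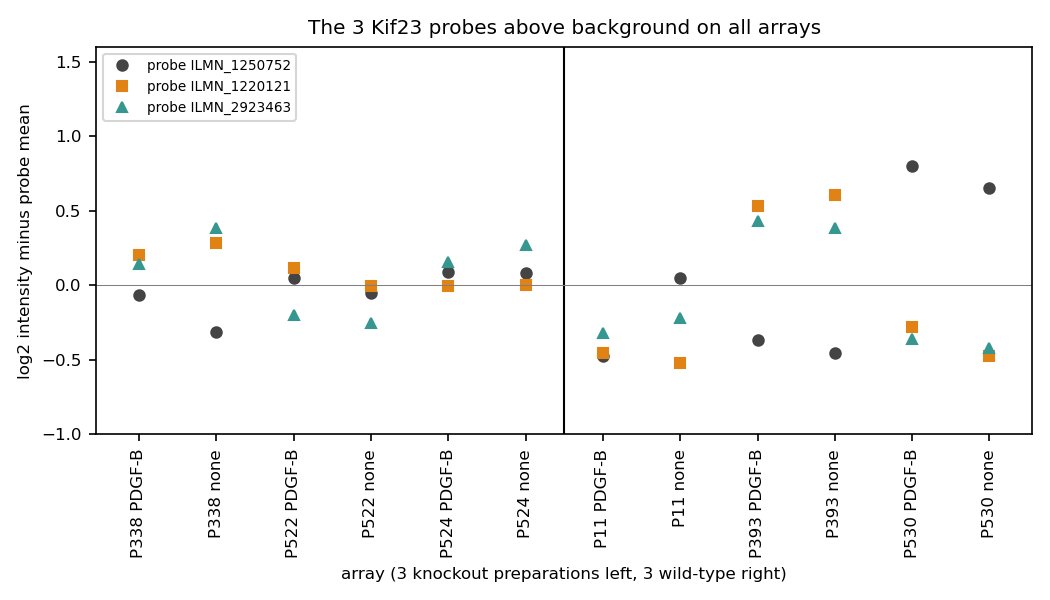
Log2 intensity minus the probe's mean for the 3 Kif23 probes above background on all 12 arrays, knockout preparations left of the line and wild-type right. ILMN_1250752 is highest in P530, while ILMN_1220121 and ILMN_2923463 are highest in P393 and low in P530.

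Among the genes of cytokinesis, Prc1, which bundles the microtubules of the central spindle, measured 9.69 and 9.78 in P338, 9.01 and 8.93 in P522 and 9.75 and 9.93 in P524 among knockout preparations, against 8.81 and 8.94 in P11, 9.65 and 9.69 in P393 and 8.92 and 8.69 in P530 among wild-type ones. The arrays of P338, P524 and P393, at 9.65 to 9.93, lay above all others, at 8.69 to 9.01. Between preparations of one genotype the F test gave adjusted p = 2.88e-05 for Prc1. Anln, the ring scaffold anillin, measured 9.21 and 9.26 in P338, 8.12 and 8.13 in P522 and 9.33 and 9.26 in P524 among knockout preparations, against 8.93 and 8.77 in P11, 8.88 and 9.10 in P393 and 8.32 and 8.17 in P530 among wild-type ones. P11 lay near the high preparations for Anln. It was above P530 by 0.60 ± 0.10 SE (adjusted p = 0.00267), and the difference of P393 minus P11 was 0.14 ± 0.10 SE and not called (adjusted p = 0.455). Ect2, the exchange factor that activates RhoA at the ring, was above background on 4 arrays and was not called (adjusted p = 0.198). Racgap1, the partner of Kif23 in centralspindlin, was above background on 0 arrays, and its probe's values of 5.71 to 5.85 set only an upper bound.

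Pairs of preparations of one genotype were compared in the same fit. P338 minus P522 was positive and called for 21 of the 28 members and negative and called for 0, beside 11.6% of all genes higher and 8.94% lower. P524 minus P522 gave 21 higher and 0 lower, beside 21.2% and 17.8%. Between the high knockout preparations, P338 minus P524 gave 0 higher and 3 lower (Cdk1, Tpx2 and Spag5), beside 13.8% and 13.1%. In wild type, P393 minus P11 gave 19 higher and 1 lower, Plk1, beside 6.1% and 4.87%. P393 minus P530 gave 21 higher and 1 lower, Kif23 by its brightest probe, beside 8.73% and 8.22%. P11 minus P530 gave 4 higher and 1 lower, beside 6.87% and 7.26%. The last count and that of P338 minus P524 moved with the arrays used. P338 minus P524 gave 2 higher and 6 lower without P11 or either of its arrays, and 1 lower without the PDGF-B array of P338, and P11 minus P530 gave 2 higher without the P530 array that had no PDGF-B. Median log2 differences of the members were 0.58, 0.58, -0.05, 0.52, 0.70 and 0.09 in that order, and those of all genes were within 0.01 of 0.

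Array brightness and markers of other cell types were set beside these levels, and the markers followed them in part. Median raw intensity was 91.4 and 92.1 in P338, 93.3 and 93.8 in P524 and 95.9 and 96.2 in P393 (PDGF-B and none). It was 86.2 and 88.2 in P522, 91.7 and 88.3 in P11 and 87.8 and 91.6 in P530. The arrays of P524 and P393 were thus the brightest, while the P338 array with PDGF-B lay below 1 array of P11 and 1 of P530. Averaged over its arrays, each of P338, P524 and P393 was brighter than P522, P11 and P530, the same split as for most members. Mesothelial markers, as a median over 8 measured genes of each preparation's deviation from the gene mean, stood at 0.76 in P338, -1.63 in P522 and 0.89 in P524 among knockout preparations, against 0.03 in P11, 0.08 in P393 and -0.03 in P530 among wild-type ones. They were high in the same knockout preparations as the members, and among wild-type preparations they stood close together. The summed linear intensity of these 8 genes was 2331 to 16350 in knockout and 5050 to 9706 in wild-type arrays. P338, P524 and P393 were the 3 highest preparations for 3 of the 8 mesothelial genes, beside 8.38% of all genes. They were so for 0 measured genes of the other cell type lists. Upk3b, a uroplakin of mesothelium picked after its values were seen, was higher in P11 than in P393. As preparation means it measured 12.47 in P338, 9.34 in P522 and 12.55 in P524 among knockout preparations. In wild type Upk3b measured 11.63 in P11, 11.53 in P393 and 10.82 in P530. Macrophage markers, 14 measured, had summed intensities of 26101 to 49321 in knockout and 39468 to 48643 in wild-type arrays. Their median deviation was -0.72 in P524 and between 0.03 and 0.21 in the other preparations, high or low for the members. Hepatocyte and lymphocyte lists had 3 measured genes each, with sums of 188 to 202 and 181 to 216 in knockout arrays and 182 to 254 and 180 to 200 in wild-type arrays. Endothelial and cholangiocyte lists, 9 and 2 measured genes, had sums of 750 to 1101 and 302 to 1034 in knockout arrays and 605 to 1115 and 473 to 663 in wild-type arrays. The cholangiocyte genes had median deviations of 0.64 in P338, -0.92 in P522 and 0.77 in P524, the knockout preparations. In wild type these were -0.27 in P11, -0.23 in P393 and 0.02 in P530. Endothelial deviations lay between -0.16 and 0.10 in all preparations. Stellate and myofibroblast lists, 9 and 12 genes, had sums of 10822 to 12024 and 25332 to 41760 in knockout arrays and 12149 to 13736 and 28787 to 46556 in wild-type arrays. Myofibroblast genes had median deviations of 0.75 in P524 and 0.66 in P530, and between -0.36 and -0.02 in the other preparations. Stellate deviations lay between -0.14 and 0.06. The part of array brightness or cell makeup in the G2/M levels was not tested. With each array scaled by its median instead of quantile normalization, and with the authors' normalized values, 24 members were again called between preparations. Such a count cannot tell brightness or cell makeup from other differences between preparations.

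PDGF-B changed no G2/M member past the threshold in either genotype. In knockout cells 0 of 28 members were called, and in wild-type cells 0 of 28, beside 0% of all genes in each (limma, adjusted p under 0.05). No member reached an unadjusted p under 0.05 in either comparison, while 133 genes did in knockout and 79 in wild-type cells. With the preparation as a block 0 members did in either, beside 834 genes in knockout and 628 in wild-type cells. The members' changes had a median of -0.04 in knockout cells, where 10 of 28 were positive, and 0.01 in wild-type cells, where 18 of 28 were positive. The largest in knockout cells was that of Birc5, -0.18 ± 0.37 SE (adjusted p = 1). The largest in wild-type cells was that of Cenpa, 0.17 ± 0.51 SE (adjusted p = 1). With the preparation as a block, which removes the spread between preparations, the Birc5 and Cenpa changes had adjusted p-values of 0.857 and 0.997, and again 0 members were called. Averaged over both genotypes 0 members were called, beside 0% of all genes, and the largest change was that of Mad2l1, -0.10 ± 0.23 SE.

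Pair by pair the ligand change of the members had no common sign. PDGF-B minus none was positive for 8 of 28 members in P338 (median -0.06), 9 in P522 (-0.04) and 15 in P524 (0.01), the knockout pairs, beside 49.4%, 48.9% and 49.8% of all genes. It was positive for 9 in P11 (-0.05), 11 in P393 (-0.02) and 25 in P530 (0.15), the wild-type pairs, beside 53.9%, 45.2% and 49.2%. P530 was thus the pair with most members higher on the PDGF-B array, by up to 0.48, that of Cdca3. Each pair is 1 array against 1 array, without a replicate. The P530 arrays were at the low end of the members' range both with and without PDGF-B.

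The dependence of the ligand response on genotype was tested as the difference between the genotypes' responses. It was called for 0 of 28 members and 0 had an unadjusted p under 0.05 without the block, beside 0% of all genes called, with a median of -0.07 and 9 of 28 positive. Cenpa had the largest value, -0.33 ± 0.72 SE. Its ligand changes were -0.07, -0.25 and -0.16 in the knockout pairs P338, P522 and P524, against 0.11, -0.06 and 0.45 in the wild-type pairs P11, P393 and P530. With the preparation as a block its SE was 0.13, its unadjusted p 0.026 and its adjusted p 0.999 in limma, beside 599 genes with an unadjusted p under 0.05. Tpx2 changed by -0.20, -0.04 and -0.12 in the knockout pairs, against 0.07, 0.12 and 0.02 in the wild-type pairs. Its changes were negative in every knockout pair and positive in every wild-type pair, and signs opposed in this or the reverse way were found in 2.87% of all genes. The difference was -0.19 ± 0.47 SE without the block. With the block, which compares changes within preparations, it was -0.19 ± 0.088 SE, with an unadjusted p of 0.057 and an adjusted p of 0.999 in limma. The pair changes of the genotypes did not overlap for Tpx2 and Cenpa, 2 of the 28 members, beside 9.27% of all genes.

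Knockout minus wild type was positive for most members and called for none. Without PDGF-B 25 of 28 members were positive, with a median of 0.26, and with PDGF-B 25 of 28, with a median of 0.20, while 53.6% and 54.4% of all genes were positive. The medians depended on which preparations were in the fit. Without PDGF-B the median was 0.093 without P530 and 0.51 without P393, and leaving out P338 or P522 also moved it by more than 1.5 times. With PDGF-B it was 0.042 without the PDGF-B array of P524 and 0.46 without P522, and leaving out any of the 6 preparations moved it by more than 1.5 times, as did using no filter, the mean of a gene's probes or median scaling. It was positive in every alternative run. The numbers called were 0 of 28 in each, beside 0.015% of all genes in each, and no member had an unadjusted p under 0.05 without the block, while 299 and 196 genes did. With the preparation as a random block, 1 member without PDGF-B and 0 with it had one, beside 235 and 157 genes, and 0 members were called. Members share the same 6 preparations, of which 2 of the 3 knockout ones and 1 of the 3 wild-type ones were high. The 25 positive values are therefore not separate observations. Birc5 had the largest difference without PDGF-B, 0.53 ± 0.37 SE, and 8.34 ± 0.48 in the knockout preparations against 7.97 ± 0.50 in the wild-type ones (SD, n = 3 each). With PDGF-B the largest was that of Plk1, -0.45 ± 0.33 SE, beside -0.51 ± 0.33 SE without it. Without PDGF-B the knockout and wild-type arrays of Plk1 did not overlap, as for 6.13% of all genes, although the highest knockout and the lowest wild-type array were both 6.16 to 2 decimals. With PDGF-B the groups overlapped for all 28 members, beside 5.2% of all genes without overlap. As preparation means Plk1 had 6.13 ± 0.06 in the knockout preparations against 6.61 ± 0.62 in the wild-type ones (SD, n = 3 each), and P11 at 7.31 stood apart from P393 at 6.33 and P530 at 6.18.

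Over preparation means, 3 against 3, 0 members were called and 0 had an unadjusted p under 0.05, beside 0% of all genes called, and 25 of 28 were positive with a median of 0.23, which was 0.12 without P530 and 0.49 without P522 and moved by more than 1.5 times without any 1 of the 6 preparations. Cdca3 had the largest difference, 0.48 ± 0.32 SE, with 8.64 ± 0.48 in the knockout preparations against 8.16 ± 0.46 in the wild-type ones (SD, n = 3 each). An exact two-sided permutation test over the preparation means gave p = 0.2 for Cdca3, where 3 against 3 can give no p below 0.1. Pbk differed by 0.45 ± 0.22 SE, also at p = 0.2 in the exact permutation test. For Cdca3 and Pbk the knockout preparation P522 lay below the wild-type preparation P393. The preparation means of the genotypes overlapped for all 28 members, beside 5.06% of all genes without overlap.

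**Figure D4:**
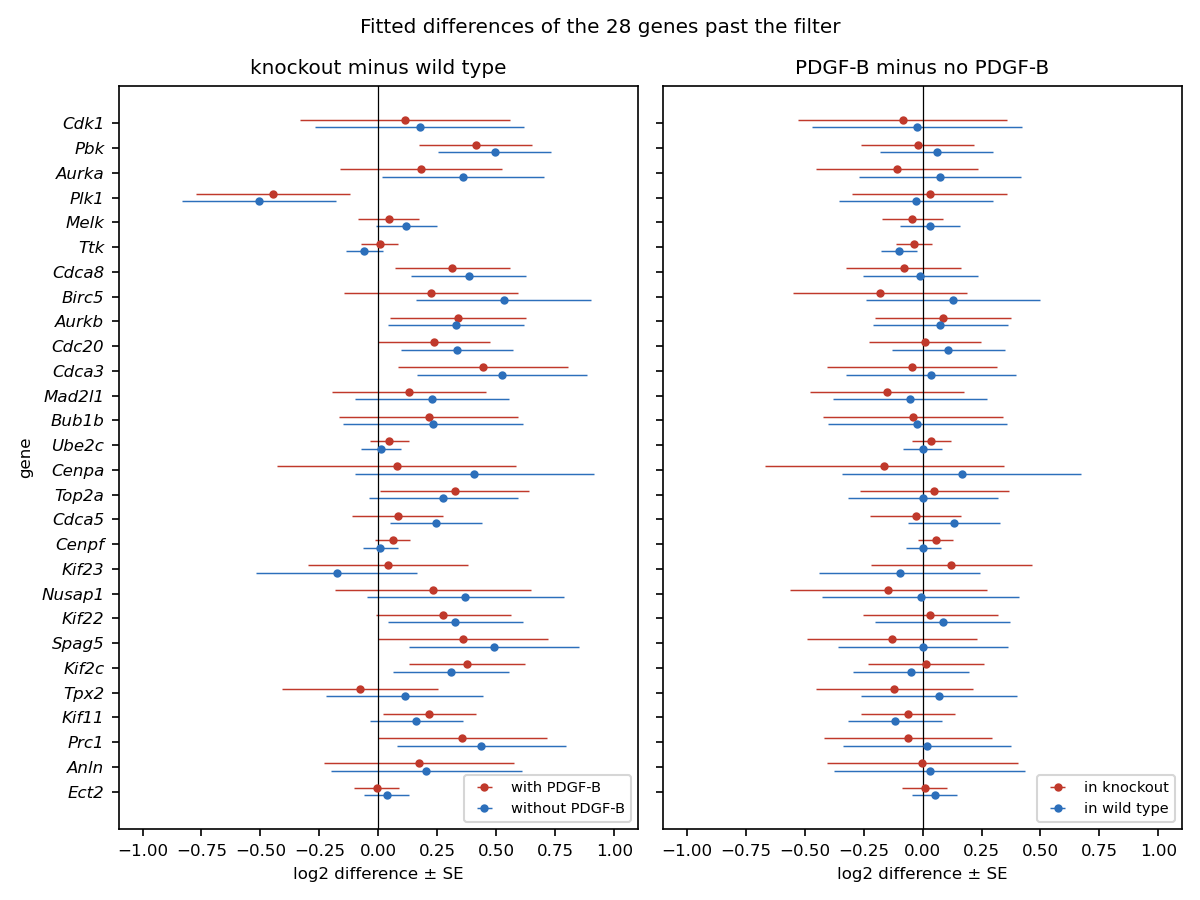
Fitted log2 differences (horizontal axis, ± SE) of the 28 measured members for knockout minus wild type with and without PDGF-B (left) and for PDGF-B minus none in knockout and wild type (right). Most points at left lie above 0, many of them with errors larger than the difference. Plk1 lies below 0 with and without PDGF-B, Kif23 and Ttk only without it, and Tpx2 and Ect2 only with it. The points at right scatter around 0.

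Most other measured genes of the same stage had the members' order on these arrays. A list of 73 further G2/M genes, none of them among the 36, had 64 measured, of which 45 (70.3%) were called between preparations of one genotype, beside the 45.6% of all genes. Again for 45 of the 64, P338, P524 and P393 were the 3 highest preparations, beside 8.38% of all genes. This list and those below were chosen with earlier results of these data known and read on the same arrays. They are therefore not an independent check of the order. Lmnb1, the nuclear lamin B1, measured 8.75 in P338, 7.76 in P522 and 9.06 in P524 among knockout preparations, against 8.15 in P11, 8.73 in P393 and 8.13 in P530 among wild-type ones (preparation means, adjusted p = 1.02e-05). Cdkn3, a phosphatase of CDK1 and CDK2, measured 8.01 in P338, 7.10 in P522 and 8.15 in P524 among knockout preparations, against 7.46 in P11, 8.04 in P393 and 7.13 in P530 among wild-type ones (adjusted p = 1.22e-05). Hjurp, the chaperone that loads CENP-A, measured 8.69 in P338, 7.61 in P522 and 8.56 in P524 among knockout preparations, against 7.91 in P11, 8.22 in P393 and 7.79 in P530 among wild-type ones (adjusted p = 1.25e-05). All 3 genes, named for their smallest p, were high in the same preparations as Cenpa and Cdk1. Ckap2, also called, was instead highest in P524, P11 and P393. In the ligand and genotype comparisons 0 of the 64 were called by limma, and at most 3 had an unadjusted p under 0.05 in any of them without the preparation as a block and at most 5 with it.

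Genes of the G1/S step and of replication moved partly with them. Of 39 measured among 44 listed, 26 (66.7%) were called between preparations and 21 had P338, P524 and P393 highest, beside 45.6% and 8.38% of all genes. Tk1, the thymidine kinase of S phase, measured 8.18 in P338, 7.28 in P522 and 8.43 in P524 among knockout preparations, against 7.37 in P11, 8.34 in P393 and 7.25 in P530 among wild-type ones (adjusted p = 2.51e-05), the same split as the members. Rrm1, the large subunit of ribonucleotide reductase, had the same value in P530 as in P393 to 2 decimals, at 8.79 in P338, 7.87 in P522 and 9.52 in P524 among knockout preparations, against 8.30 in P11, 8.64 in P393 and 8.64 in P530 among wild-type ones (adjusted p = 3.33e-06). E2f2, an E2F activator, was low in P524, at 8.08 in P338, 7.87 in P522 and 6.93 in P524 among knockout preparations, against 7.09 in P11, 8.46 in P393 and 7.32 in P530 among wild-type ones (adjusted p = 1.08e-05). In the ligand and genotype comparisons 0 of the 39 were called, with at most 3 at an unadjusted p under 0.05 without the block and at most 4 with it.

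Inhibitors of the cycle and targets of p53 had another order. Of 21 measured among 24, 15 (71.4%) were called between preparations and 3 had P338, P524 and P393 highest, beside 45.6% and 8.38% of all genes. Cdkn2a, the locus of the inhibitors p16 and ARF, measured 8.53 in P338, 9.72 in P522 and 8.99 in P524 among knockout preparations, against 7.88 in P11, 8.52 in P393 and 9.88 in P530 among wild-type ones (adjusted p = 1.12e-05). It was highest in P530 and P522, which were low for the G2/M members, and lowest in P11, which was low for them too. Cdkn2b, the inhibitor p15, measured 8.75 in P338, 8.59 in P522 and 9.23 in P524 among knockout preparations, against 9.56 in P11, 8.56 in P393 and 9.63 in P530 among wild-type ones (adjusted p = 2.72e-05). Phlda3, a p53 target that restrains AKT, was highest in P524 and P530, at 10.37 and 10.15 (adjusted p = 1.85e-05). For ligand and genotype 0 of the 21 were called, with at most 2 at an unadjusted p under 0.05 without the block and at most 4 with it.

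Among 13 measured regulators of G2/M transcription, 6 (46.2%) were called between preparations, a share near the 45.6% of all genes, and 2 had P338, P524 and P393 highest, beside 8.38%. Foxm1, the forkhead factor of G2, measured 6.86 in P338, 6.57 in P522 and 6.75 in P524 among knockout preparations, against 6.48 in P11, 6.71 in P393 and 6.39 in P530 among wild-type ones (adjusted p = 0.0264), with the same 3 preparations highest. Mybl2, which codes for B-MYB, was not called (adjusted p = 0.38). Both genes also stand in the list of further G2/M genes. Nfyc, a subunit of NF-Y, was called with P522 lowest at 10.07 and the other preparations between 10.43 and 10.54 (adjusted p = 0.00412). Lin54, the subunit of MuvB that binds the CHR, and E2f5, an E2F of the DREAM complex, were called with other orders (adjusted p = 0.00931 and 0.0145). For ligand and genotype 0 of the 13 were called, with at most 1 at an unadjusted p under 0.05 with or without the block.

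**Figure D5:**
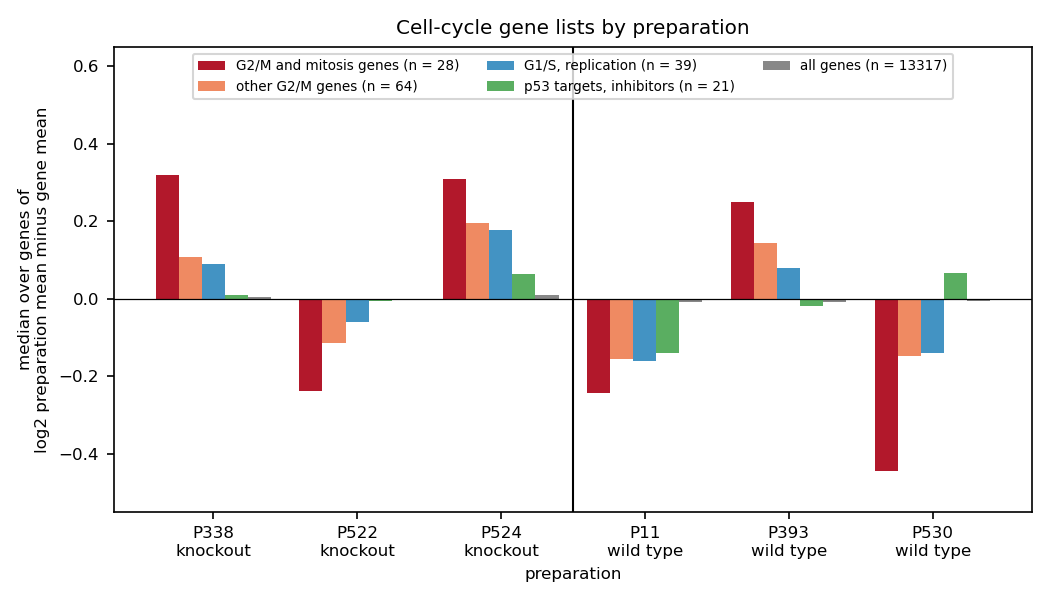
Median over the genes of each list of the log2 preparation mean minus the gene's mean (vertical axis), for the 6 preparations. The G2/M members stand at 0.32 in P338, 0.31 in P524 and 0.25 in P393 and at -0.24 in P522, -0.24 in P11 and -0.45 in P530, further G2/M and G1/S genes go the same way by less, and all genes stay within 0.01 of 0.

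The members below the filter, Ccnb2, Bub1, Cenpe, Kif20a, Nek2, Hmmr and Racgap1, had only bounds, as did the arrays on which Cenpf, Ttk, Ube2c, Ect2 and Melk were not above background. Of those 5 Melk was called between preparations, and the other 4 had ranges of 0.14 to 0.22 at the lower end of the arrays' values.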

How the data were processed

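Total RNA of cultured stellate cells from mouse liver was hybridised to 12 Illumina arrays with 1 colour. The authors deposited probe intensity values before normalization, on a linear scale without background subtraction, which were used here, and a second table of their normalized intensity, used as an alternative. Its column medians were near 90.9, its scale was linear with no centring, and its normalization method and the scanner software are not given in the sources used.

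Background correction was by normexp with an offset of 50, followed by quantile normalization and log2, in limma 3.58.1 under R 4.3.3 (statmod 1.5.0). No detection p was in the tables, so background was estimated by mirroring each array's distribution below its mode, and 26302 probes with p under 0.05 on at least 3 arrays were kept. The annotation gave 34885 probes 1 symbol, 18 several and 10378 none, and 0 symbols needed updating. Members had more than 1 probe in 22 cases, and the probe with the highest mean intensity stood for each gene. RefSeq promoters were those of GRCm38.p6.

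Groups follow the labels. Group means were fitted to all 12 arrays with lmFit and eBayes (8 residual degrees of freedom), and genes were adjusted together. The test between preparations had 4 residual degrees of freedom. Preparation codes in the titles pair the arrays: deviations from group means correlated at r = 0.585 to 0.93 within preparations across genes, and 12 of 12 arrays correlated best with their own. No arrays held identical values. Fits were tested on simulated data, with noise drawn separately for each array. Beyond the changes put in, the simulated preparations did not differ, so error and power under real preparation differences were not measured.

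The members and the lists were chosen with earlier results of these data known. Array values are given for the member with the largest difference in each comparison, up to 2 members per role with the smallest p between preparations, and Cdk1, Plk1, Aurkb, Birc5, Top2a and Prc1. Ccnb1, Bub1 and Kif20a were also chosen, but Ccnb1 had no probe, and Bub1 and Kif20a are given as their span over the arrays. Up to 3 genes per further list are named by the smallest p. Foxm1, Mybl2, Upk3b, the further Kif23 probes, Pbk and Tpx2's ligand changes were chosen after their values were seen. Alternatives were no background correction, median scaling, the authors' normalized values, 2 other filters, the mean of a gene's probes, only the groups compared, a variance trend, preparation blocks and leaving out each array or preparation. The random block for genotype and the alternatives for pairs of preparations were added after seeing the data.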

Additional observations from a re-analysis of the deposited data

How the results depend on the processing

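The number of members called between preparations was 23 or 24 under the 25 alternatives run, and 0 members were called for ligand, genotype or their interaction under any alternative that gave a test. Fixed replicate block fits of the ligand comparisons, paired by preparation, gave 0 calls, as in the fits without it, and changed no call, and the random replicate block left genotype at 0 calls. Leaving out single arrays or preparations moved the members' median log2 change, which spanned -0.21 to 0.16 for PDGF-B in knockout, -0.15 to 0.25 for PDGF-B in wild type, -0.27 to 0.13 for the interaction and -0.11 to 0.10 for the average over genotypes, with both signs in each. The genotype medians were positive throughout, at 0.093 to 0.51 without PDGF-B, 0.042 to 0.46 with it and 0.12 to 0.49 over preparation means. Single genes changed sign in the same way. Cenpa in wild-type cells spanned -0.23 (without the P530 array that had no PDGF-B) to 0.59, and was at -0.14 without the PDGF-B array of P393. Its interaction spanned -0.75 to 0.071 (without the PDGF-B array of P522) and was at 0.063 without the P530 array that had no PDGF-B. Without that P522 array Birc5 in knockout cells was at 0.12, within a span of -0.44 to 0.12, and Mad2l1 over both genotypes at 0.055, within -0.23 to 0.055. P11 minus P530 had 1 member higher under median scaling instead of 4, and with the mean of a gene's probes P338 minus P524 had 5 lower instead of 3 and P393 minus P530 had 0 lower instead of 1. The cause was not tested. The Plk1 call was lost without P11 (adjusted p = 0.381). With 3 preparations per genotype an exact test cannot give p below 0.1, and dim probes limit 12 of the 35 members.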
